A study of Mus musculus with 20 samples.

Results

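Iron, heme and the iron-binding siderophores of bacteria are bound, moved and stored by a set of proteins that the liver makes or uses. The 10 genes described here are Hamp, Hamp2, Lcn2, Hp, Hpx, Slc40a1, Tfrc, Trf, Cp and Hmox1. They were taken by gene symbol from the 37681 genes of each count table, and all 10 were among the 15578 genes with enough reads to be tested. The livers came from 10 male C57/B6J mice (strain given as C57/BL6 in the sample labels) aged 12 weeks. Of these, 5 mice had received IL-1β at 20 µg/kg and 5 had received saline, the untreated group, and the livers were collected 4 hours later. No allele was altered in either group. RNA of each liver was sequenced on Illumina and on Ion Torrent, and each platform was aligned with GSNAP, STAR and STAR + Bowtie2, which gave 6 tables of 10 libraries with whole-number read counts per gene, made by the authors after depth re-sampling.

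Iron reaches cells as ferric iron on transferrin (Trf), which the transferrin receptor (Tfrc) takes up, and it leaves cells through ferroportin (Slc40a1). Hepcidin (Hamp), a peptide hormone of hepatocytes, binds ferroportin and causes its loss from the cell surface, so that iron is held back in macrophages, enterocytes and hepatocytes. In inflammation, interleukin 6 acting through STAT3 is the known inducer of Hamp, in addition to the signal of bone morphogenetic proteins (BMPs) that reports iron stores. Haptoglobin (Hp) and hemopexin (Hpx) are plasma proteins that clear free hemoglobin and free heme, lipocalin 2 (Lcn2) binds bacterial siderophores, ceruloplasmin (Cp) oxidizes iron on its way to transferrin, and heme oxygenase 1 (Hmox1) breaks down heme inside the cell.

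The mouse has a pair of hepcidin genes side by side on chromosome 7, both on the minus strand. Hamp lies at chr7:31727390-31729036 and Hamp2 at chr7:31707391-31709200 of NCBIM37 (mm9, the build of the count tables), each with 3 exons. By BLAST of the member transcripts against all annotated coding transcripts, Hamp and Hamp2 were 93.0% identical over 399 bases, and no other members matched each other over 100 bases or more. Cp aligned to Hephl1 at 71.7% identity over 314 bases, and Hmox1 to Hmox2 at 80.0% over 115 bases. Trf aligned at 100.0% over 1517 bases to a second, overlapping gene record, which the count tables list as Srprb.

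The stretches upstream of both start sites are shown because Hamp rose and Hamp2 fell in the Illumina STAR table. With GSNAP and STAR + Bowtie2 the change of Hamp2 was not called, and with Ion Torrent GSNAP its sign was positive. They are RefSeq promoters (GRCm38.p6, a later build than that of the tables), read in the direction of the gene, at chr7:30944030-30944279 for Hamp and chr7:30924182-30924431 for Hamp2, both on the minus strand. The promoter of Lcn2 (chr2:32387740-32387989, minus strand) is given as that of the member with the largest change. Capitals mark matches to any of 4 motifs, each searched on both strands. These were TTCNNNGAA (STAT), GGCGCC (BMP-responsive element), TTGCNNAA (C/EBP) and GGGNNNNNCC (NF-kB).
Hamp: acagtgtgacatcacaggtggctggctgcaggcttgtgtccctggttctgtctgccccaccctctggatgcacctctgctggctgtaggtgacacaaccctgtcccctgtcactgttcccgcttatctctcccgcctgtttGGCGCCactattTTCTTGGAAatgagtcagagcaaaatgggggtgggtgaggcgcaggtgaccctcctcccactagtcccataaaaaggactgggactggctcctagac
Hamp2: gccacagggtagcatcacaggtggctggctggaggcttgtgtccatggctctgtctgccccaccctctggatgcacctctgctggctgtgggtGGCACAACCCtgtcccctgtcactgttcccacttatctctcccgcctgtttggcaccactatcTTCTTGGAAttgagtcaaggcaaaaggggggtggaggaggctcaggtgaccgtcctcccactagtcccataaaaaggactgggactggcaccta
Lcn2: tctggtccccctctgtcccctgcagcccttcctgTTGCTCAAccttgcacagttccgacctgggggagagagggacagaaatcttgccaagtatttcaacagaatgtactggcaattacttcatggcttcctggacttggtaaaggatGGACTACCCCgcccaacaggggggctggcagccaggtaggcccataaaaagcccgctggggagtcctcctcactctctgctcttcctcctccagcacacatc
The Hamp and Hamp2 stretches were identical at 89.7% of aligned positions. Both held the STAT motif, ending 89 bases before the start in Hamp and 86 bases before it in Hamp2. The window of Hamp also held the GGCGCC motif, at 109 to 104 bases before the start, and that of Hamp2 held no match to these letters but 1 match to the NF-kB motif. The Lcn2 window held a C/EBP match and an NF-kB match. Among all 32851 promoters in the table, 7.02% held the STAT motif, 9.59% the GGCGCC motif, 9.56% the C/EBP motif and 45.8% the NF-kB motif. Promoters were at hand for 6 of the 10 members, and the motifs were matched by letters alone. Any part of these motifs in the counts was not tested.

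Total reads per library ranged from 10568530 to 12008799 on Illumina and from 12199528 to 16439683 on Ion Torrent. For 9 mice, the deviations of the Illumina and the Ion Torrent library from their treatment group means correlated at 0.60 to 0.74 across 10867 genes, and for untreated mouse UNT_9584 at 0.24. Results that compare the platforms are therefore given with and without this mouse. The fold changes are log2 ratios of IL-1β treated to untreated after TMM scaling, with the standard error (SE) of edgeR's quasi-likelihood fit. Adjusted p-values are Benjamini-Hochberg values over the 15578 genes. The Illumina STAR table is the one described unless another is named, and the other tables hold the same mice and are no further replicates. In bulk liver, fewer cells of a type and less RNA per cell cannot be told apart.

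All 10 members passed an adjusted p of 0.05 in the Illumina STAR table, 7 of them higher and 3 lower in the IL-1β treated mice. In the same table, 45.7% of all tested genes passed, 22.7% higher and 22.9% lower. Hamp, Trf, Cp, Lcn2, Hp, Hpx and Hmox1 were higher, and Hamp2, Slc40a1 and Tfrc were lower. The counts of the treated and untreated mice did not overlap for 7 members, against 33.6% of all tested genes. A stricter call that also asked for more than 1 on the log2 scale in either direction kept 7 members, all but Hamp2, Trf and Cp, where 17.0% of all tested genes met it. Together the 10 genes took 4.18% ± 0.30 (SD, n = 5) of all gene reads in the treated mice and 1.12% ± 0.05 (SD, n = 5) in the untreated mice.

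**Figure D1:**
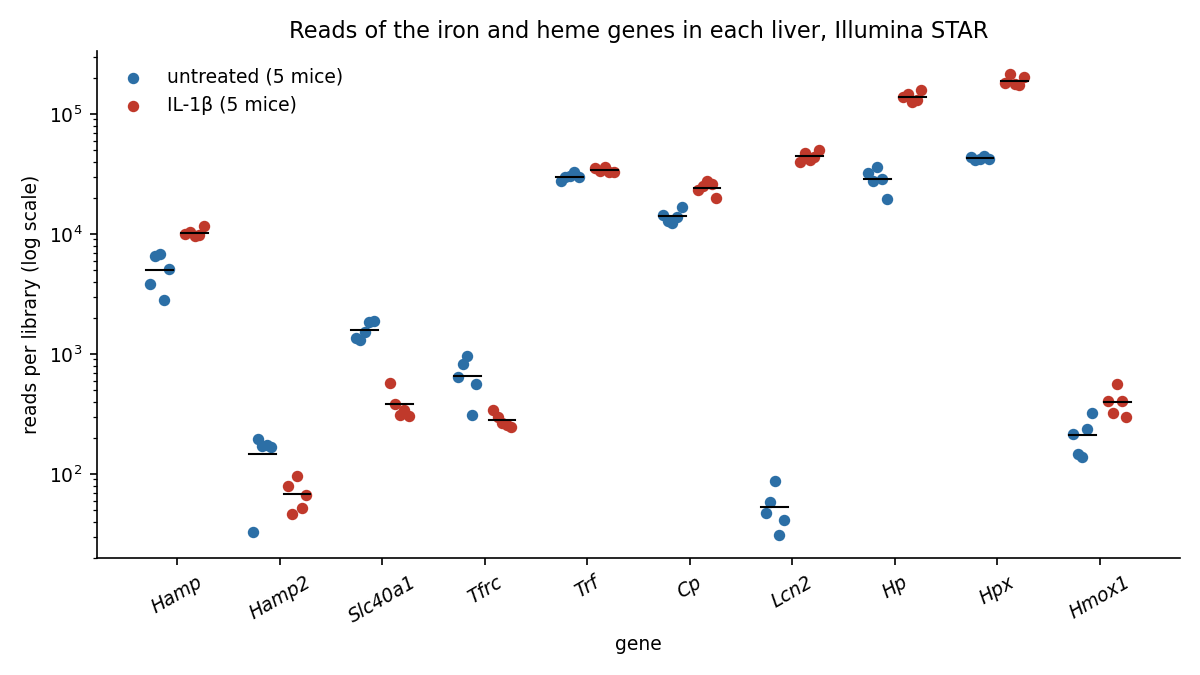
Reads per library (log axis) of the 10 genes in the Illumina STAR table, with 1 point for each of 5 untreated and 5 IL-1β treated mice and a line at the group mean. Points of both groups mix only for Hamp2, Tfrc and Hmox1, and Lcn2 is far above its untreated range in every treated mouse.

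Hamp, the hepcidin hormone gene, was higher in every treated liver. Its reads were 10054, 10289, 9690, 9743 and 11624 in treated mice ILB_9577, ILB_9578, ILB_9579, ILB_9582 and ILB_9583, the order kept throughout. In untreated mice UNT_9574, UNT_9575, UNT_9576, UNT_9580 and UNT_9584, in that order throughout, they were 3826, 6516, 6871, 2827 and 5087. The lowest treated mouse was above the highest untreated one, and the untreated mice were the more spread, with UNT_9580 lowest. The log2 fold change was 1.21 (SE 0.19, adjusted p = 0.000127 by edgeR), or 2.32-fold. In the other 5 tables it was 1.06 to 1.19, with an adjusted p of at most 0.00144. The share of all tested genes that passed in those tables was 47.5% with Illumina GSNAP, 47.4% with Illumina STAR + Bowtie2, 42.1% with Ion Torrent STAR, 46.4% with Ion Torrent GSNAP and 46.7% with Ion Torrent STAR + Bowtie2.

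Hamp2 encodes a second hepcidin-like peptide, which is not known to act as the iron hormone. Its reads were few, at 79, 46, 96, 52 and 67 in the treated mice and 33, 194, 171, 173 and 168 in the untreated mice. The untreated mice were above all treated mice except for UNT_9574, which was the lowest of all 10. On the log2 scale Hamp2 changed by -0.95 (SE 0.35, adjusted p = 0.0367 by edgeR). Without mouse UNT_9574 it was -1.23 (adjusted p = 0.000126), and leaving out any 1 of 7 other mice raised the adjusted p to between 0.0628 and 0.0823. The Mann-Whitney U test, the test used by the study, gave a q of 0.242 for Hamp2 and at most 0.0407 for each of the other 9 members, where 38.4% of all tested genes passed.

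The call for Hamp2 depended on the aligner, and its sign on the combination of platform and aligner. With STAR, Hamp2 was also lower on Ion Torrent, at -0.89 (SE 0.35, adjusted p = 0.0474). With GSNAP the log2 fold change was -0.44 (SE 0.28, adjusted p = 0.208) on Illumina and 0.60 (SE 0.26, adjusted p = 0.0667) on Ion Torrent. With STAR + Bowtie2 it was -0.0016 (SE 0.27, adjusted p = 0.999) on Illumina and -0.38 (SE 0.29, adjusted p = 0.298) on Ion Torrent. The Ion Torrent GSNAP table held the most Hamp2 reads, 711, 532, 589, 599 and 853 in the treated mice and 217, 654, 582, 317 and 625 in the untreated mice. In that table the groups overlapped and UNT_9574 was again the lowest mouse. Reads that fit both genes could be assigned to either, so the Hamp2 values are uncertain. Summing the reads of both genes left the change of hepcidin close to that of Hamp alone, at 1.18 (SE 0.19, adjusted p = 0.000143) on Illumina STAR and 1.04 to 1.16 in the other tables.

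The share of Hamp2 among the reads of both hepcidin genes compares the genes within a library. It was 0.780%, 0.445%, 0.981%, 0.531% and 0.573% in the treated mice and 0.855%, 2.89%, 2.43%, 5.77% and 3.20% in the untreated mice. Only untreated mouse UNT_9574 lay within the treated range. The means were 0.662% ± 0.217 (SD, n = 5) and 3.03% ± 1.78 (SD, n = 5), and they differed by -2.37 percentage points (two-sided exact permutation test, p = 0.0159, adjusted p = 0.0238 over 2 ratios). The reads of Hamp make up most of this share's denominator, and they rose. The share was lower in the treated mice in the other 5 tables as well, by 1.54 to 2.28 percentage points, with adjusted p-values of 0.0159 to 0.0317 by the same exact permutation test. The level of the share was highest in the Ion Torrent GSNAP table, at 4.01% to 4.86% in the treated mice and 4.59% to 7.18% in the untreated mice.

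**Figure D2:**
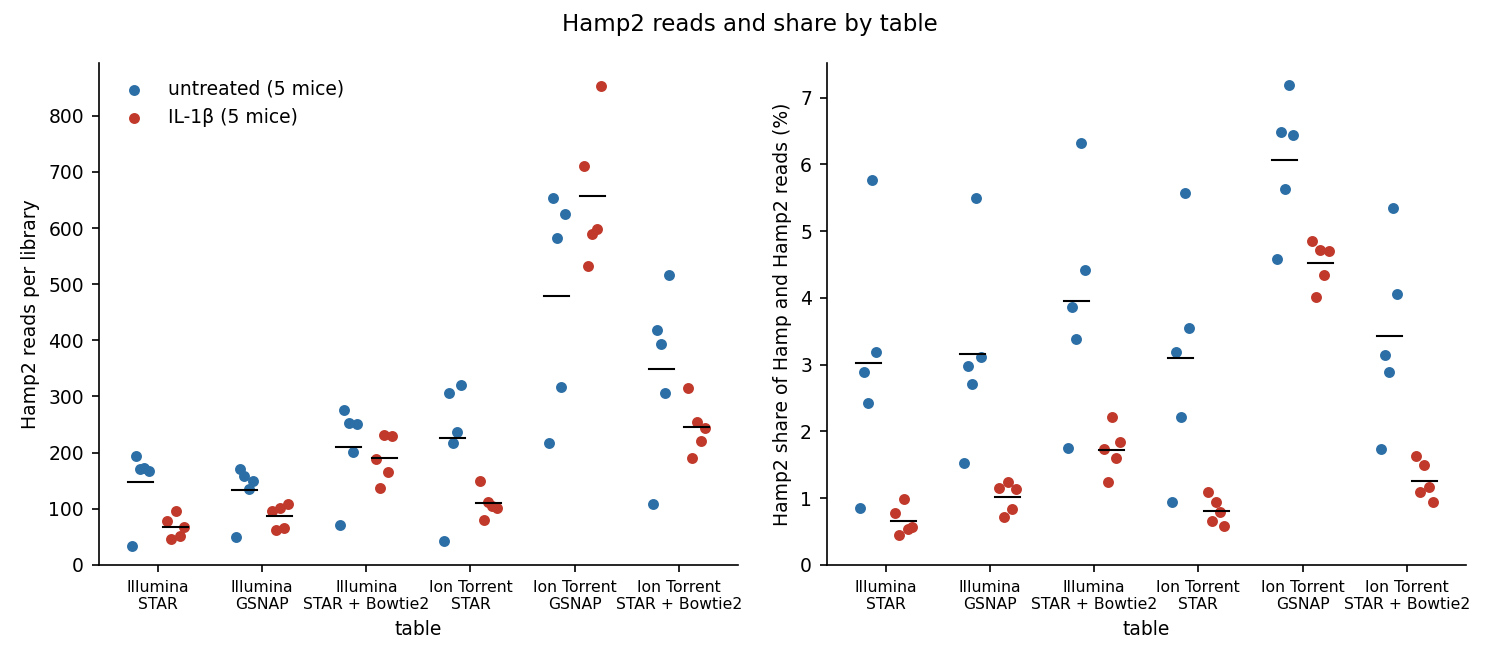
Hamp2 reads per library (left) and the Hamp2 share of the reads of both hepcidin genes in percent (right), for 5 untreated and 5 IL-1β treated mice in each of 6 tables, with lines at the group means. The mean number of reads is higher in treated mice in the Ion Torrent GSNAP table and not in the other tables, while the mean share is lower in treated mice in all 6.

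Slc40a1, the gene of the iron exporter ferroportin, was the member that fell most. Its reads were 568, 385, 308, 343 and 303 in the treated mice and 1360, 1301, 1516, 1861 and 1866 in the untreated mice. The highest treated mouse, ILB_9577, was below every untreated mouse. The log2 fold change was -1.89 (SE 0.17, adjusted p = 6.37e-07 by edgeR), or 3.70-fold lower, and -1.96 to -1.92 in the other tables.

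Tfrc, the receptor for iron-loaded transferrin, fell as well. Its reads were 343, 298, 268, 255 and 245 in the treated mice and 646, 827, 959, 312 and 558 in the untreated mice. Untreated mouse UNT_9580, the mouse with the fewest Hamp reads, was the only untreated one within the treated range. The log2 fold change was -1.05 (SE 0.21, adjusted p = 0.00095 by edgeR), and -1.22 (adjusted p = 1.34e-05) without UNT_9580. Without each mouse in turn the change was -1.22 to -0.88. It was called in all 6 tables, with -1.10 to -0.90 in the other 5. By the Mann-Whitney U test on TMM-scaled counts its q was 0.0677.

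The log2 ratio of Slc40a1 to Tfrc reads compares the RNA of the exporter and of the receptor over all cells of the liver. The part of cell types in this ratio was not tested. The ratio was lower after IL-1β. It was 0.73, 0.37, 0.20, 0.43 and 0.31 in the treated mice and 1.07, 0.65, 0.66, 2.58 and 1.74 in the untreated mice. Untreated mice UNT_9575 and UNT_9576 lay just below the highest treated mouse, and UNT_9580 and UNT_9584 were well above it. The means were 0.41 ± 0.20 (SD, n = 5) and 1.34 ± 0.82 (SD, n = 5), a difference of -0.93 (two-sided exact permutation test, p = 0.0238, adjusted p = 0.0238). Without UNT_9580 the difference was -0.63 (adjusted p = 0.0476 by the exact permutation test), and in the other tables it was -1.13 to -0.93.

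**Figure D3:**
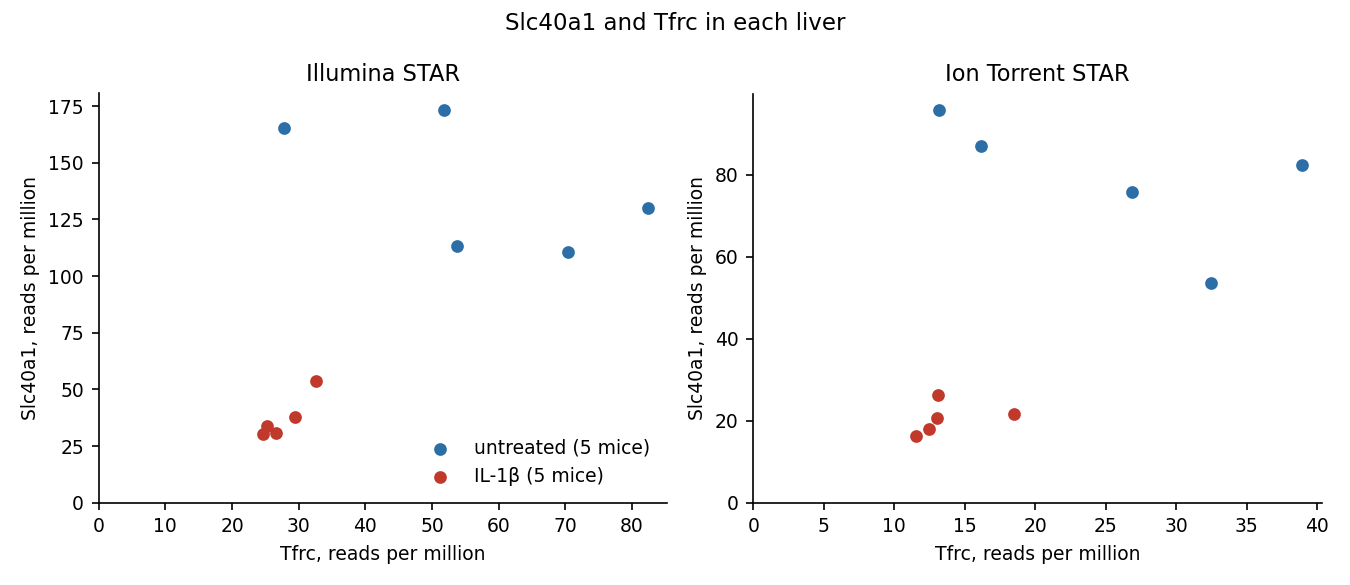
Slc40a1 against Tfrc in TMM-scaled CPM in each liver, for Illumina STAR (left) and Ion Torrent STAR (right), with 5 untreated and 5 IL-1β treated mice. The treated mice sit together at low Slc40a1 in both panels, and untreated mouse UNT_9580 has a low Tfrc with a high Slc40a1.

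Trf, the plasma carrier of ferric iron, changed least. Its reads were 35135, 33240, 36314, 32881 and 32714 in the treated mice and 27754, 29551, 30265, 32662 and 29697 in the untreated mice. The groups were barely separated, with untreated mouse UNT_9580 just below treated mouse ILB_9583. They overlapped with Illumina GSNAP, at 33758 reads in the lowest treated and 34131 in the highest untreated mouse, and in every Ion Torrent table. Trf rose by a log2 fold change of 0.36 (SE 0.10, adjusted p = 0.00824 by edgeR), or 1.28-fold. It was called in the 3 Illumina tables and with Ion Torrent STAR at 0.29 (adjusted p = 0.0446), but not with Ion Torrent GSNAP at 0.26 (adjusted p = 0.0682) or STAR + Bowtie2 at 0.26 (adjusted p = 0.0741). A gene model on the same strand, listed as Srprb, shares 2108 exonic bases with Trf and held 0 reads over the 10 libraries.

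Cp, whose product oxidizes ferrous iron for loading onto transferrin, rose as well. Its reads were 23367, 25279, 27460, 25865 and 19756 in the treated mice and 14449, 12794, 12338, 13830 and 16748 in the untreated mice. Treated mouse ILB_9583 was the lowest of its group and untreated mouse UNT_9584 the highest of its own, with no overlap. Cp rose by a log2 fold change of 0.97 (SE 0.13, adjusted p = 2.12e-05 by edgeR) and 0.96 to 1.06 in the other tables. Cp shares 108 exonic bases with Hps3 on the opposite strand, which held 910 reads over the 10 libraries.

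Lcn2, the siderophore-binding lipocalin, had few reads in every untreated liver and many in every treated one. Its reads were 40160, 47404, 41321, 43833 and 50420 in the treated mice and 47, 58, 87, 31 and 41 in the untreated mice. Its log2 fold change was 9.91 (SE 0.26, adjusted p = 2.05e-12 by edgeR), or 960-fold, and 9.77 to 10.05 in the other tables. Lcn2 took 0.420% ± 0.041 (SD, n = 5) of all gene reads in the treated mice.

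Hp and Hpx, the scavengers of hemoglobin and heme, rose to more than 1% of all gene reads each. Reads of Hp were 139526, 145537, 125046, 131228 and 157485 in the treated mice and 32111, 27605, 35827, 28463 and 19643 in the untreated mice. The log2 fold change was 2.47 (SE 0.15, adjusted p = 7.87e-09 by edgeR), or 5.53-fold. Untreated mouse UNT_9584 was the lowest and treated mouse ILB_9583 the highest. With Ion Torrent STAR the lowest was UNT_9580, at 39547 reads against 42425 in UNT_9584.

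Hpx was the most abundant of the 10 genes in both groups. Its reads were 180049, 216086, 176759, 172924 and 202706 in the treated mice and 43717, 41296, 42461, 44985 and 41770 in the untreated mice. The untreated mice lay closer together than for any other member, with a share of gene reads of 0.390% ± 0.015 (SD, n = 5) against 1.79% ± 0.18 (SD, n = 5) in the treated mice. The log2 fold change was 2.32 (SE 0.12, adjusted p = 1.94e-09 by edgeR), or 5.00-fold.

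Lcn2 and Hp are also made by neutrophils and their precursors, and neutrophil transcripts moved in the same direction. Of 13 neutrophil markers, 9 had enough reads to be tested and all 9 were higher. Their median log2 fold change was 5.21, or 4.77 with Ngp, at 0 reads in every untreated mouse, set to a floor of 3 reads over the group. The summed reads of the 13 markers were 616 to 1380 in the treated mice and 36 to 101 in the untreated mice. S100a9, the most abundant of them, had 221 to 506 and 4 to 16 reads. Lcn2 alone had 40160 or more reads in each treated mouse. Of the other defining markers, Mmp8 had 29 to 82 reads in the treated mice and 0 or 1 in the untreated mice, Mmp9 had 11 to 56 and 0 to 8, and Ngp had 8 to 34 and 0. Summed over a group, Elane had 0 reads in the 5 treated mice and 4 in the 5 untreated mice, Mpo had 1 and 0, Ly6g 6 and 0, and Camp 11 and 0. The part of neutrophils in the rise of Lcn2 and Hp was not tested.

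Hmox1, the inducible heme oxygenase, was higher with overlap between the groups. Its reads were 405, 324, 557, 407 and 296 in the treated mice and 216, 146, 139, 238 and 319 in the untreated mice. Untreated mouse UNT_9584 was above the lowest treated mouse, ILB_9583. Hmox1 rose by a log2 fold change of 1.07 (SE 0.23, adjusted p = 0.00138 by edgeR), and by 0.92 to 1.04 in the other tables. Without each mouse in turn the change was 0.92 to 1.30, the largest without UNT_9584.

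Slc40a1 and Hmox1 are strongly expressed in Kupffer cells, the macrophages of the liver. Of 9 Kupffer cell and macrophage markers, 1 was higher, 3 were lower and 5 did not pass, with a median log2 fold change of -0.52. Their summed reads were 835 to 1993 in the treated mice and 1556 to 3027 in the untreated mice, with no marker at 0. Clec4f, the most abundant, was at -0.60 (SE 0.18, adjusted p = 0.012 by edgeR). Marco was the one that was higher, at 2.16 (SE 0.36, adjusted p = 0.000155 by edgeR). Slc40a1 fell by more than this median and Hmox1 rose, and the part of Kupffer cell number in either was not tested.

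Among the other marker lists, 1 of 8 hepatocyte markers was higher, Tat at 1.51, and 4 were lower, with Alb at -0.53. Of 5 erythroid and blood markers tested 1 was lower, with Alas2, the one with the most reads, at -0.24 (adjusted p = 0.164 by edgeR). Of 6 endothelial markers 2 were higher, Lyve1 at 1.49 and Cdh5 at 0.89, and 2 were lower, Kdr at -1.68 and Clec4g at -1.21. Stab2, the one with the most reads, was at -0.30 (adjusted p = 0.201 by edgeR). Alb had 505223 or more reads in every library, as the labelled tissue calls for.

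**Figure D4:**
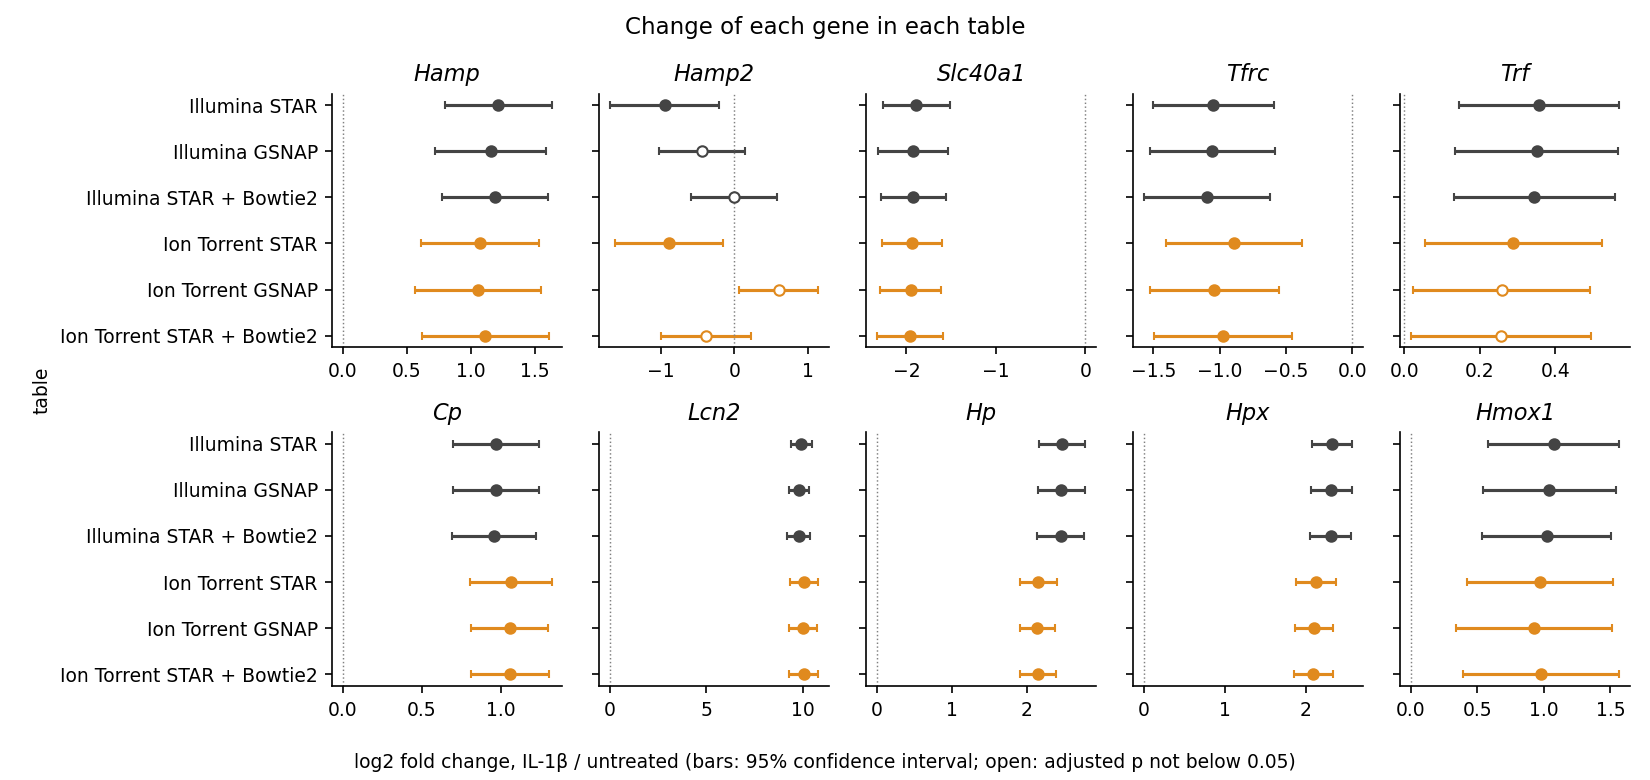
Log2 fold change (IL-1β over untreated, 5 mice a group) of each gene in each of 6 tables, with 95% confidence intervals from edgeR, Illumina in grey and Ion Torrent in orange, each panel on its own axis. Hamp2 spans -0.95 to 0.60, while each other gene keeps its sign in all tables.

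Levels of different genes were compared as TMM-scaled CPM (reads scaled to a common library size) per kilobase of exon in the Illumina STAR table. In untreated liver the order was Hpx at 2528 ± 134 (SD, n = 5), Hp at 1855 ± 341, Hamp at 1116 ± 376, Trf at 791 ± 69, Cp at 128 ± 21, Slc40a1 at 41.0 ± 8.7, Hamp2 at 29.7 ± 13.2, Tfrc at 9.25 ± 3.35, Hmox1 at 8.62 ± 3.36 and Lcn2 at 1.99 ± 0.78. The ranges over mice overlapped for Hp and Hamp, Hamp and Trf, Slc40a1 and Hamp2, Hamp2 and Tfrc, and Tfrc and Hmox1, so these neighbours were not separated. After IL-1β, Hpx was at 12651 ± 1356 (SD, n = 5) and Hp at 10256 ± 1011, with overlapping ranges. On these merged lengths Hamp followed at 2585 ± 232. Lcn2 at 1912 ± 214 stood above Trf at 1013 ± 43 and Cp at 251 ± 31. Hmox1 at 18.1 ± 4.6, Hamp2 at 15.3 ± 4.5 and Slc40a1 at 11.1 ± 2.9 overlapped one another, and Tfrc was lowest at 4.48 ± 0.53. Slc40a1 thus stood above Hmox1 in every untreated mouse, while in the treated mice their ranges of 9.03 to 15.9 and 13.8 to 25.6 overlapped.

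The same livers on 2 platforms show how far the values of a mouse repeat. With STAR, the SD over mice of the log2 level around the group mean was 0.10 (Trf) to 0.85 (Hamp2) on Illumina. The SD of the difference between a mouse's Illumina and Ion Torrent deviations was 0.05 (Hpx) to 0.28 (Lcn2), and for 9 of 10 members it was smaller than the Illumina spread over mice. Trf was the exception, at 0.11 between platforms and 0.10 over mice. Against the spread over mice on Ion Torrent it was smaller for 9 of 10 members too, and there the exception was Hp, at 0.16 between platforms and 0.13 over mice. Without mouse UNT_9584 the SD between platforms was 0.04 (Hpx) to 0.30 (Lcn2), smaller than the Illumina spread for 9 members, again without Trf, and smaller than the Ion Torrent spread for all 10.

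The treatment effect itself was compared between the platforms with a platform-by-treatment term, fitted to all 20 STAR libraries with the mouse as a block. None of the 10 members passed an adjusted p of 0.05, where 0.00642% of all tested genes, 1 gene, did. At an unadjusted p under 0.05 there were 2 members (7.00% of all tested genes), both with a smaller rise on Ion Torrent. For Hp the term was -0.32 (SE 0.08, adjusted p = 0.626 by edgeR), and for Hpx it was -0.19 (SE 0.05, adjusted p = 0.653). DESeq2 and limma-voom also called 0 members, with 2 at an unadjusted p under 0.05 each. Without mouse UNT_9584, the mouse whose libraries differed most, Hp passed at -0.22 (adjusted p = 0.0103) and Hpx was at -0.16 (adjusted p = 0.179). The share of all tested genes that passed was not counted without this mouse, nor with DESeq2 or limma-voom. Whether Hp stands out among all genes in that fit is therefore not known.

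With GSNAP, 1 member passed the platform-by-treatment test, where 0.0642% of tested genes did. This was Hamp2, whose change was higher on Ion Torrent by 1.06 (SE 0.16, adjusted p = 0.0015 by edgeR). Hamp2 passed without each mouse in turn, at 0.96 to 1.20, and missed the threshold without the mouse block at 1.05 (SE 0.42, adjusted p = 1). With STAR the Hamp2 term was 0.10 (95% confidence interval -0.23 to 0.44) and with STAR + Bowtie2 it was -0.36 (adjusted p = 0.616), where 0.0770% of tested genes and no member passed. Without mouse UNT_9584 the Hp term passed with GSNAP as well, at -0.21 (adjusted p = 0.0393). With STAR + Bowtie2 and without that mouse the Hp term passed at -0.23 (adjusted p = 0.0283), and no other member passed. For fits that leave out a mouse, the share of all tested genes that passed was not counted.

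Other genes of iron and heme handling were read from 6 lists of 59 genes, of which 55 could be tested. With Illumina STAR, 19 were higher and 15 lower, so that 61.8% passed against 45.7% of all genes. The lists were chosen with earlier results of these data known, so these shares are no test of iron and heme genes. The median change of all tested genes was 0.00 and their median absolute change 0.47.

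Of 20 tested genes that control hepcidin, 8 rose, 5 fell and 7 did not pass, with a median log2 fold change of 0.26. Hfe2, the BMP co-receptor hemojuvelin, fell from 535 to 645 reads in the untreated mice to 36 to 82 in the treated mice, a change of -3.12 (SE 0.17, adjusted p = 3.11e-09 by edgeR). Inhbb, which encodes the subunit of activin B, rose by 2.70 (SE 0.37) from a mean of 9.4 to 53.6 reads. Socs3, an inhibitor of STAT3 signaling that STAT3 induces, rose by 2.30 (SE 0.38). 

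Of 14 transport genes, 6 rose, 6 fell and 2 did not pass, with a median of 0.14. Steap4, a metalloreductase, rose by 4.80 (SE 0.19, adjusted p = 1.2e-10 by edgeR), from 2082 to 3288 reads in untreated mice to 49411 to 75310 in treated mice. Slc11a2, the divalent metal transporter, rose by 2.23 (SE 0.12), from 404 to 609 reads to 1817 to 2415. Flvcr2, related to the heme exporter gene Flvcr1, was lower at -3.08 (SE 0.34), with 3 to 5 reads in treated mice and 22 to 53 in untreated mice.

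Of 5 genes for storage and its turnover 1 passed, Pcbp1, an iron chaperone, at 0.66 (SE 0.10). The ferritin subunit genes Fth1 at 0.05 (SE 0.11, adjusted p = 0.752 by edgeR) and Ftl1 at 0.17 (SE 0.16, adjusted p = 0.424), named after their values were seen, did not pass. Of 5 genes for iron regulatory proteins and sensing 2 passed. Hif1a, the oxygen-regulated transcription factor, rose by 0.92 (SE 0.18) and Aco1, iron regulatory protein 1, was lower at -0.53 (SE 0.09).

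Of 5 genes of heme breakdown, 1 rose and 2 fell. Blvra, a biliverdin reductase acting after heme oxygenase, rose by 0.51 (SE 0.11). Bach1, a repressor of Hmox1, was lower at -0.57 (SE 0.20, adjusted p = 0.0264 by edgeR), and Nfe2l2, an activator of Hmox1, was lower at -0.54 (SE 0.17, adjusted p = 0.0163). Of 6 receptors and other carriers, Ambp, precursor of the heme-binding alpha-1-microglobulin, rose by 0.49 (SE 0.10) and Hebp1, a heme-binding protein, was lower at -0.79 (SE 0.11). Ltf, the iron-binding lactoferrin of neutrophil granules, was the other one called, with 31 reads over the treated mice and 0 over the untreated mice, at least 10.3-fold higher with a floor of 3 reads over the group. That bound holds for this table only. Ltf averaged 348 and 324 reads in the treated and untreated mice with Illumina STAR + Bowtie2 (log2 fold change 0.25, adjusted p = 0.0382), and 44.8 and 29.6 with Ion Torrent GSNAP (0.75, adjusted p = 0.0188). In the other 3 tables it also had 0 untreated reads.

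**Figure D5:**
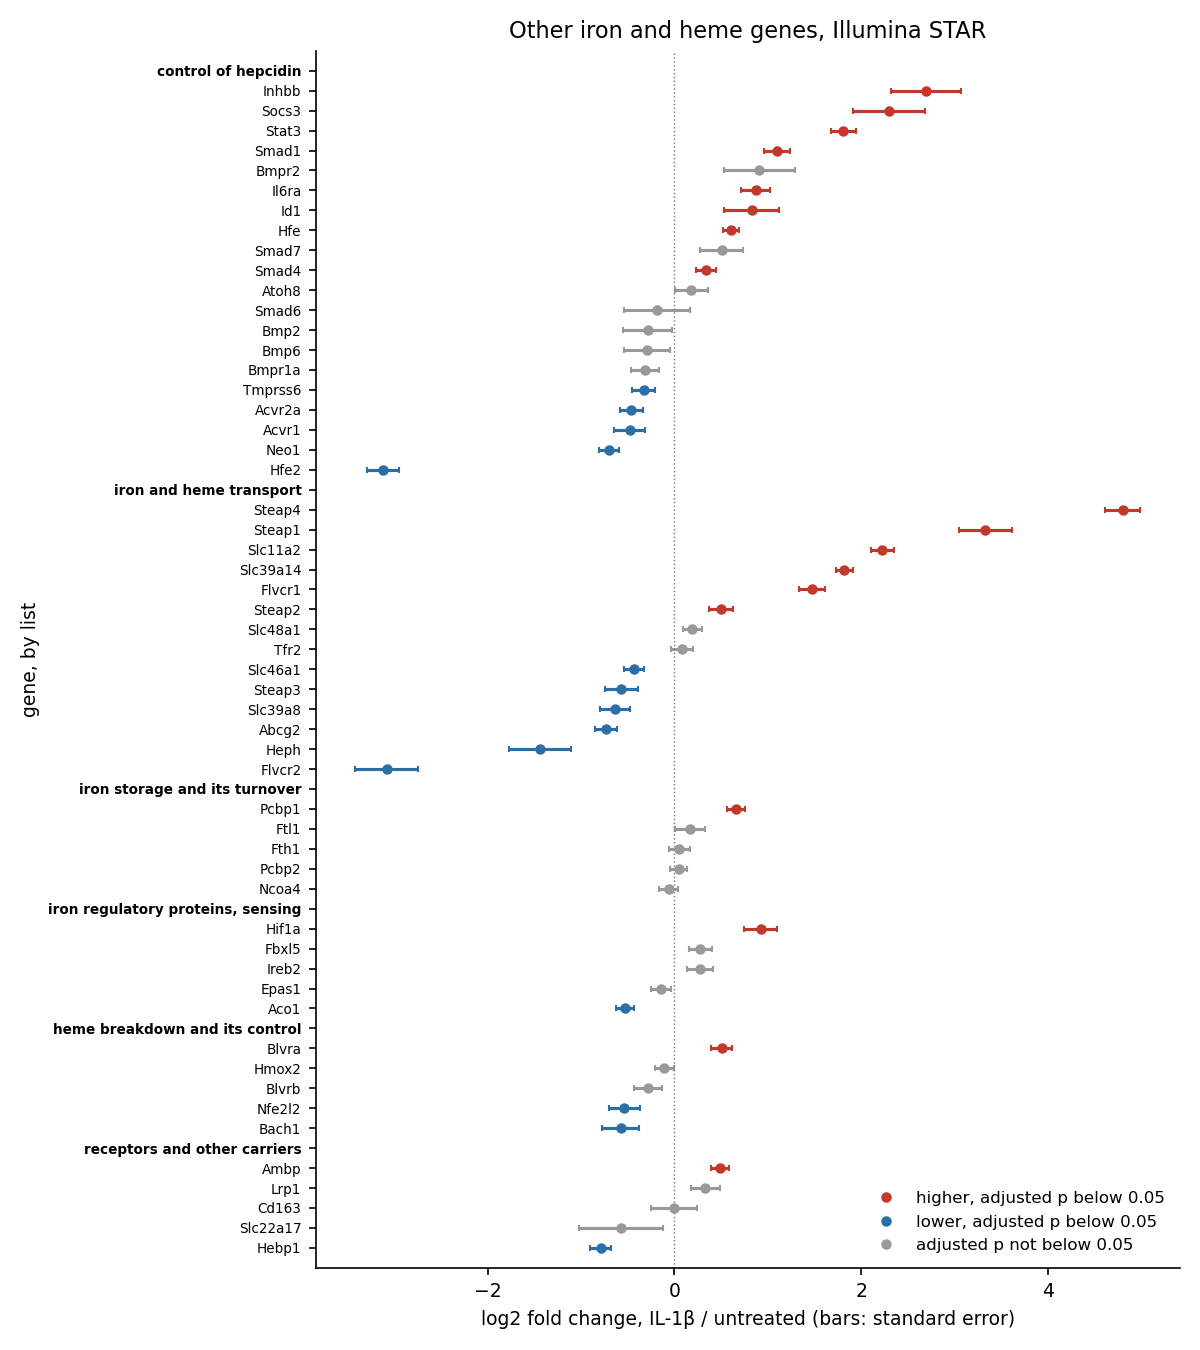
Log2 fold change (IL-1β over untreated, 5 mice a group, bars for the SE) of the tested genes of 6 iron and heme lists in the Illumina STAR table, without Ltf, which had 0 untreated reads. Red and blue points passed an adjusted p of 0.05, with Steap4 at 4.80 farthest to the right and Hfe2 at -3.12 farthest to the left.

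For 3 members the genes with the most similar pattern were found by the root mean square difference of log2 CPM over the 10 mice, each gene set relative to its untreated mean, among 7810 genes with a mean of at least 100 reads. Closest to Hamp were Pde12 (0.20) and Irgq (0.21). Closest to Slc40a1 was Adcy6 (0.20). Closest to Lcn2 were Saa3, an acute-phase serum amyloid gene (0.53), with means of 42336 reads in treated and 63.2 in untreated mice, and A2m, the protease inhibitor alpha-2-macroglobulin (0.63), with 2206 and 2.2 reads.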

How the data were processed

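Poly-A RNA of each liver was sequenced on both platforms. The deposited values are whole-number counts of reads per gene after re-sampling. The authors aligned reads to mm9 with STAR 2.5.1b, GSNAP or STAR followed by Bowtie2 2.2.9, removed rRNA and mitochondrial reads, re-sampled each table's libraries to the smallest and counted Ensembl gene models with PORT. Strand use in counting, and whether a count is a read or a pair, are not given in the sources used here.

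Mice were compared within a table by edgeR 4.0.16 (TMM, quasi-likelihood, R 4.3.3) over 15578 genes, a minimum of 5 reads being required in at least 5 libraries of a table. DESeq2 1.42.0, limma-voom (limma 3.58.1) and the study's Mann-Whitney U test were alternatives. Ratios were compared by exact permutation tests (scipy 1.17.1), where 5 mice against 5 allow no p below 0.00794. The platform-by-treatment fit had the mouse as a block, since 1 liver gave both libraries. Fits were tested on simulated data.

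Positions and transcripts are those of GENCODE vM1 (NCBIM37), compared with BLAST+ 2.17.0 and Biopython 1.88. Of list symbols, 3 were matched under an older name. The pattern search used a pseudocount of 0.5 reads. Named genes are the 10 members, up to 3 called genes per iron list (mean of at least 20 reads, largest absolute change), per marker list the one with the most reads and those at 0, and the 2 nearest patterns to Hamp, Lcn2 and Slc40a1. Ltf, Fth1, Ftl1, Mpo, Ly6g, Camp, Mmp8, Mmp9, Ngp, Marco, Tat, Lyve1, Cdh5, Kdr and Clec4g were named besides. A sequence and a gene within these rules are not reported here. The members and lists were chosen with earlier results of these data known.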

Additional observations from a re-analysis of the deposited data

Results flagged for a closer look

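Among 24 groups of 5 mice tested in the Illumina STAR table for a sample apart from the rest by Dixon's ratio, 3 had one, and chance gives about 1 in 20. Untreated mouse UNT_9574 had 2.75 Hamp2 CPM after TMM scaling, where the other 4 untreated mice had 14.7 to 16.5. Treated mouse ILB_9583 had 1170 Hamp CPM after TMM scaling, where the others had 954 to 1014. Treated mouse ILB_9579 had 3610 Trf CPM after TMM scaling, where the others had 3260 to 3330. With Ion Torrent STAR, UNT_9574 was again the lowest untreated mouse for Hamp2 (3.12 CPM) and ILB_9583 again the highest for Hamp (1516 CPM). For Trf, ILB_9583 was then the highest treated mouse at 4199 CPM, above ILB_9579 at 3798.

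The effect of IL-1β on Hamp2 differed between the platforms with GSNAP, higher on Ion Torrent by 1.06 on the log2 scale by the platform-by-treatment term of edgeR with the mouse as a block (adjusted p = 0.0015). Its part in reads shared with Hamp was not tested.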

How the results depend on the processing

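Hamp, Slc40a1, Tfrc, Cp, Lcn2, Hp, Hpx and Hmox1 kept their direction and passed the adjusted threshold in edgeR, DESeq2 and limma-voom, with other scaling or filters, in all 6 tables and without each mouse, and Tfrc missed it only by the Mann-Whitney U test on TMM-scaled counts. Hamp2 was at -0.75 with limma-voom (adjusted p = 0.282), -0.44 and -0.0016 with Illumina GSNAP and STAR + Bowtie2, -0.38 with Ion Torrent STAR + Bowtie2 and turned to 0.60 with Ion Torrent GSNAP. Without each mouse in turn it was -1.23 to -0.84. Trf was at 0.26 in the Ion Torrent GSNAP and STAR + Bowtie2 tables (adjusted p = 0.0682 and 0.0741). The cause was not tested. Scaling by library totals alone shifted the median of all genes by -0.10 and changed no member's call. An absolute log2 change above 1 was met by 7 members.

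The number of members with a platform-by-treatment term was 0 with and 0 without the mouse block, 1 with GSNAP and 0 to 1 without each mouse, the 1 being Hp without mouse UNT_9584. Without that mouse Hamp2 and Hp passed with GSNAP and Hp alone with STAR + Bowtie2. How many of all tested genes passed without a mouse was not counted. Without the block the Hamp2 term with GSNAP was 1.05 (adjusted p = 1). Of the 5 genes of iron regulation and sensing, 1 passed by the Mann-Whitney U test and 4 in the Ion Torrent STAR table, against 2. The sum of both hepcidin genes, the GSNAP terms without each mouse, and the STAR + Bowtie2 terms and platform spread without UNT_9584 were added after seeing the data. Hamp2 rests on under 200 reads a library in this table, Lcn2 in untreated mice on under 100.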
